A study of Homo sapiens with 4 samples.

Results

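These results concern the sites bound by HA-tagged TBX3 in intergenic DNA that lies outside annotated repeats and within 50 kb of a transcription start site (TSS). A site was taken from the replicate 1 peak list if the deposited annotation called it intergenic, named no repeat under its summit and placed it at most 50 kb from the nearest TSS, and if its summit and a summit of replicate 2 were each other's nearest within 200 bp. The rule gave 2577 sites, which were 11.4% of the 22702 regions shared by the replicates (95% Wilson interval 10.9% to 11.8%) and 7.93% of the 32479 peaks of replicate 1. The sites are called near intergenic sites below.

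The study used 501mel, an established melanoma cell line, and chromatin immunoprecipitation with sequencing (ChIP-seq). TBX3 carried 3 copies of the HA peptide, and 2 samples were precipitated with the anti-HA antibody 12CA5. The other 2 samples were input chromatin of the same cells and were not analysed here. All samples shared the same line, so there was a single ChIP condition, and how the tagged protein was expressed is not stated in the labels. The labels do not say whether the replicates came from separate cultures.

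TBX3 is a T-box transcription factor that acts mostly as a repressor. T-box proteins recognise a short element whose core reads GGTGTGA, and they often bind far from promoters, at enhancers. TBX3 and its relative TBX2 are known for repressing genes that hold back proliferation, in melanoma among other cells. Intergenic DNA close to a gene holds upstream enhancers, unannotated start sites and sequence beyond the end of short genes. The nearest gene of a site is a label by position, and it need not be the gene that the site acts on.

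The sequence under a summit could be read where a near intergenic summit fell inside one of the RefSeq promoter windows of GRCh38.p14, which run from 250 bases before to 50 bases after a gene start. There were 21 such sites. The gene starts at 18 of them belonged to long non-coding RNAs (lncRNAs) and at 3 to protein-coding genes, and these starts were not the nearest TSS in the deposited annotation. The stretches below are shown because the first 3 hold a T-box core and the last 2 hold another element close to the summit. Each runs from 5′ to 3′ on the strand of the lncRNA, reaches up to 60 bases to either side of the replicate 1 summit, and has matches to the searched elements in capitals.
LOC105372652, chr20:49772394-49772514, minus strand: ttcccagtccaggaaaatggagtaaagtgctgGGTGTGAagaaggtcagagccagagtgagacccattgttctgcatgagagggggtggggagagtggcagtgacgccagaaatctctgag
LOC124903483, chr15:45456479-45456599, minus strand: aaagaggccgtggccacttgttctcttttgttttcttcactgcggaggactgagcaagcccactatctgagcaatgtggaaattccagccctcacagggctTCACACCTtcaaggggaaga
LOC124903579, chr15:87590797-87590917, plus strand: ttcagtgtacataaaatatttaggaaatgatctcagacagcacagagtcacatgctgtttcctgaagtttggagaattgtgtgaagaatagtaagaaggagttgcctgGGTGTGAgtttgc
LOC105369763, chr12:49942995-49943103, plus strand: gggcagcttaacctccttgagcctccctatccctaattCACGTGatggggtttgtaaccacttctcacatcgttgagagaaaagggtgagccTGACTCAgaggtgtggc
LOC107986337, chr4:188127536-188127656, minus strand: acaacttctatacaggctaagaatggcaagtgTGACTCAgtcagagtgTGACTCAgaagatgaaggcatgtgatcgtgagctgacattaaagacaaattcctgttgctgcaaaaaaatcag

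At LOC105372652 the core GGTGTGA had its centre 25 bp from the replicate 1 summit at 49772454, which was also the replicate 2 summit. The site scored 252.8 in replicate 1 and 400.8 in replicate 2, and the deposited annotation placed it 40259 bp upstream of SLC9A8, a sodium and proton exchanger. At LOC124903483 the longer core AGGTGTGA was present on the reverse strand, as TCACACCT, with its centre 44.5 bp from the summit, and the scores were 125.3 and 111.9. At LOC124903579 the core lay 51 bp from the summit of a weak site that scored 9.28 and 11.4. At LOC105369763 the E-box CACGTG, the element read by MITF and related factors, lay 7.5 bp from the summit and an AP-1 element, TGACTCA, lay 47 bp from it (scores 72.4 and 90.1). Its T-box core was 138 bp away and outside the printed stretch. At LOC107986337 the closer of a pair of AP-1 elements lay 9 bp from the summit, and the scores were 53.2 and 54.7.

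The promoter windows were searched on both strands for the listed letters, and the 7-letter core is contained in the 8-letter one. GGTGTGA was present in 4 of the 21 windows with a near intergenic summit (19.0%, 95% Wilson interval 7.67% to 40.0%). It was present in 24 of 350 windows with another shared summit (6.86%) and in 3.45% of all 34943 windows. AGGTGTGA was in 1 of 21, in 2.29% of the 350 and in 0.982% of all windows. TGACTCA was in 5 of 21 (23.8%, 10.6% to 45.1%), in 10.6% of the 350 and in 4.96% of all. CACGTG was in 4 of 21, in 17.4% of the 350 and in 7.23% of all. TCATGTG, the M-box of melanocyte promoters, was in 1 of 21, in 8.57% of the 350 and in 2.93% of all. With 21 windows the intervals are wide. The T-box core (350 windows, 4.65% to 10.0%) and the AP-1 element (7.77% to 14.2%) had a higher share at near intergenic summits. So did the 8-letter core and, by little, the E-box, while the M-box had a lower share. The intervals of both sets overlapped for each of the 5 elements. Most of the 21 windows were at lncRNA starts, and the gene types of the 350 were not compared. Of the 21 windows, 11 held at least 1 match, a count that was not made for the other windows and so has no comparison. Windows on chromosome 8 were not used here, in the 21, the 350 or the 34943.

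The strongest of the 21 lay at LOC124903643 on chromosome 16, with summits at 11640504 and 11640551 and scores of 410.3 and 425.2. Its window held no T-box core, and its only match was an M-box with its centre 73 bp from the summit. The deposited annotation placed this site 27929 bp upstream of SNN.

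The peak score was deposited without a named scale, so it served only to order sites inside a list. Near intergenic sites had a median score of 20.2 in replicate 1 (quartiles 10.8 and 44.1, highest 594.1) and of 33.2 in replicate 2 (quartiles 15.6 and 74.6, highest 707.0). Within its own list, the median site stood at percentile 64.9 in replicate 1 and 73.7 in replicate 2. The score was higher in replicate 2 at 2061 sites (80.0%), against 75% of all shared regions. The lists hold different numbers of peaks and were scored separately, so this cannot be read as a difference in binding. Spearman's rho between the scores in both lists was 0.865 across the 2577 sites, against 0.852 over all shared regions. This is a description of sites within 1 pair of libraries, whose depth is unknown.

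**Figure D1:**
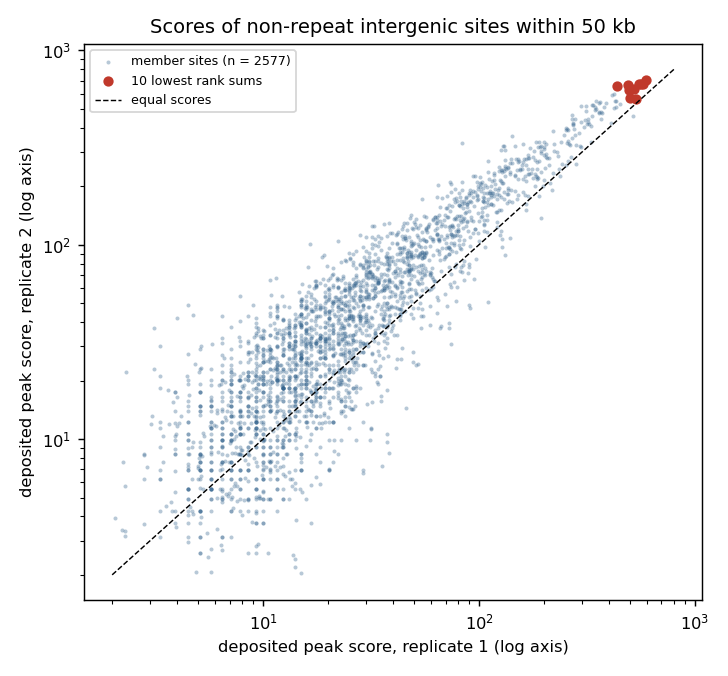
Deposited peak score of each of the 2577 near intergenic sites in replicate 1 (x axis, log scale) and replicate 2 (y axis, log scale), with the 10 sites of lowest rank sum in red and a dashed line at equal scores. Most points lie above the line, and the scatter around the trend is wider at low scores.

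The paired summits lay a median of 28 bp apart, and 1855 pairs (72.0%) were within 50 bp. At 32 sites both summits were on the same base. The widest pairs were few, with 12 sites whose gap was at most 10 bp inside the 200 bp limit and 8 pairs of the class at most 10 bp outside it. The replicate 2 partner met the same annotation rule at 2448 sites (95%), fell in an annotated repeat at 128 and was not intergenic at 1. The nearest gene was the same at 98.8% of sites.

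The 10 sites with the lowest sum of score ranks were spread over 8 chromosomes, and in 8 of them the site was upstream of its nearest TSS. The lowest sum belonged to a site on chromosome 2, with summits at 68832523 and 68832482, lying 38994 bp downstream of the TSS of BMP10, which encodes a cardiac bone morphogenetic protein. It scored 594.1 (rank 13) and 707.0 (rank 17). The second was on chromosome 3, where the summits coincided at 88188652, 38786 bp upstream of CGGBP1, a protein that binds CGG repeats, with scores of 576.7 and 675.3. On chromosome 11 summits at 12100986 and 12100987 lay 9590 bp upstream of MICAL2, an enzyme that oxidises actin, with scores of 563.4 and 669.4. These 3 sites ranked within the first 30 peaks of each list.

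The next sites were near LINC01622, EPS15 and EEA1. The site near the non-coding gene LINC01622 on chromosome 6 had summits at 1136620 and 1136622 and scores of 550.1 and 669.4. EPS15 and EEA1 both encode endocytic proteins, EPS15 an adaptor of clathrin-coated pits and EEA1 a tether of early endosomes. The EPS15 site lay 4875 bp upstream of its TSS on chromosome 1 (summits 51524198 and 51524238, scores 491.8 and 663.4). The EEA1 site lay 48122 bp upstream on chromosome 12 (92977453 and 92977480, scores 519.8 and 635.9). The remaining 4 were near GFRA3, a receptor subunit for artemin (chromosome 5, 138244080 and 138244074, 30484 bp downstream), MIR3142HG, a host gene of microRNAs (chromosome 5, 160459604 and 160459598, 8647 bp upstream), PLCE1, a phospholipase C (chromosome 10, 93991914 and 93991900, 2075 bp upstream), and LINC01348 (chromosome 1, 235090800 and 235090732, 20982 bp upstream). Their scores ran from 436.5 to 536.0 in replicate 1 and from 564.6 to 653.6 in replicate 2. Among the 81 shared regions that ranked within the first 100 of both lists, 14 were near intergenic sites. Of all 22702 shared regions, 11.4% were near intergenic sites.

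Most sites lay on the upstream side of the nearest gene. Of the 2577 sites, 1835 lay upstream of the nearest TSS (71.2%, 95% Wilson interval 69.4% to 72.9%) and 742 lay downstream of it. The median distance was 20426 bp over all sites, 18191 bp for upstream sites and 25760 bp for downstream sites. The upstream share fell with distance, from 225 of 252 sites at 1 to 5 kb (89.3%, 84.9% to 92.5%) through 80.3% at 5 to 10 kb and 72.9% at 10 to 20 kb to 196 of 334 sites at 40 to 50 kb (58.7%, 53.3% to 63.8%). A downstream site can be intergenic only beyond the end of its gene. The genes of downstream sites were shorter, with a median span of 7594 bp in RefSeq, against 32676 bp for the genes of upstream sites. The part of gene length in the upstream share was not tested.

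**Figure D2:**
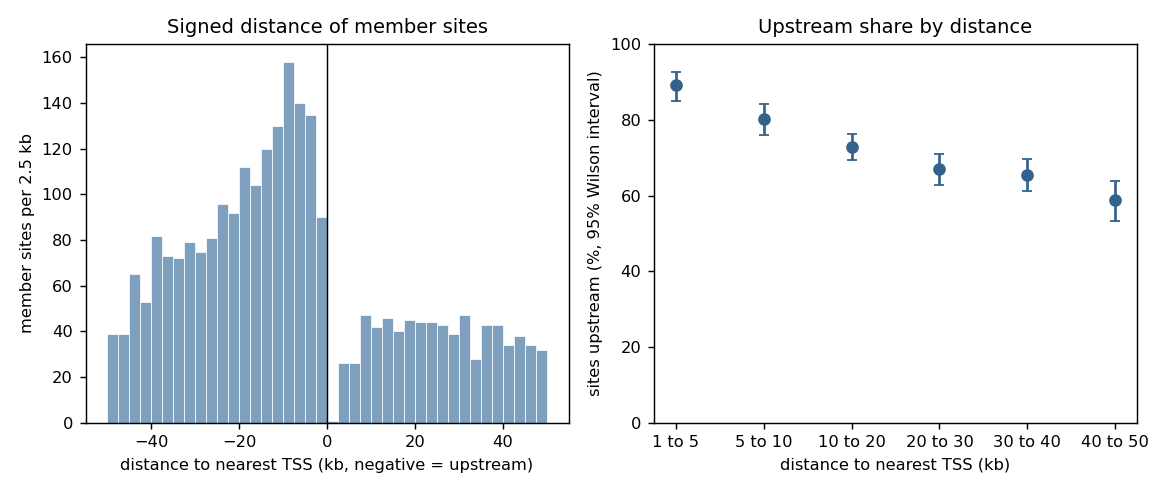
Left, number of near intergenic sites per 2.5 kb of signed distance to the nearest TSS, with upstream as negative values. Right, share of sites upstream of the TSS in 6 distance ranges with 95% Wilson intervals. The counts are highest within 10 kb upstream of the TSS, and the upstream share falls from 89.3% to 58.7%.

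Sites were most frequent per kb of distance at 5 to 10 kb, with 74.2 sites per kb, against 63.0 at 1 to 5 kb and 33.4 at 40 to 50 kb. How much intergenic DNA lies at each distance was not taken into account. Downstream sites, which must lie beyond the gene end, were 27 of 252 at 1 to 5 kb and 73 of 371 at 5 to 10 kb. The scores showed no steady change with distance. The median percentile in replicate 1 ran from 62.8 to 67.3 over the 6 distance ranges, with the lowest value at 10 to 20 kb and the highest at 40 to 50 kb. In replicate 2 it ran from 72.6 to 76.1. Upstream and downstream sites also had similar medians, at percentiles 65.5 and 64.9 in replicate 1 and 73.7 and 74.0 in replicate 2.

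The 5 sites closest to a TSS lay just over 1 kb upstream, near ASAP2 (1010 bp), TMCC2 (1017 bp), KCNH8 (1029 bp), SPAG9 (1047 bp) and the pseudogene GSTA7P (1050 bp). Of these only the site of SPAG9, which encodes a scaffold of JNK signalling and vesicle transport, was strong in both lists. It had summits at 51121912 and 51121945 on chromosome 17 and scores of 267.7 and 283.5. The other 4 scored between 9.69 and 24.7 in replicate 1 and between 5.90 and 30.7 in replicate 2. At the outer limit, the last sites inside were near LINC02364 (49831 bp, scores 19.8 and 77.9) and SYT6 (49967 bp, 71.4 and 109.6). The first outside were near ERVFRD-1 (50036 bp, 14.9 and 50.0) and KCNE4 (50092 bp, 5.12 and 14.8).

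Sites farther from genes were set beside the near ones. The series held 2200 shared non-repeat intergenic sites at 50 to 250 kb from a TSS and 585 beyond 250 kb. The upstream share was 54.8% (52.7% to 56.8%) at 50 to 250 kb and 45.6% (41.6% to 49.7%) beyond 250 kb, so the interval of the near sites overlapped neither. The median scores of the classes were close. The median percentile in replicate 1 was 64.9 for near sites, 64.9 at 50 to 250 kb and 62.1 beyond 250 kb, and in replicate 2 it was 73.7, 72.9 and 72.2. The share of near sites in the top 10% of their list was 16.2% in replicate 1 (14.8% to 17.7%) and 21.0% in replicate 2 (19.4% to 22.6%), against 15.0% and 21.3% at 50 to 250 kb and 12.6% and 17.3% beyond 250 kb. Over all shared regions these shares were 14.1% (13.7% to 14.6%) and 17.6% (17.2% to 18.1%), below the intervals of the near sites in both lists. With 2 libraries of a single condition no test between replicates could pass a threshold, and none was run. The Wilson intervals cover counting error only and treat the sites as independent.

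Of the 3642 replicate 1 peaks that met the annotation rule, 2577 had a partner in replicate 2 (70.8%, 69.3% to 72.2%). In replicate 2, 2578 of 4480 such peaks had a partner (57.5%, 56.1% to 59.0%). The shares were 71.8% and 56.0% at 50 to 250 kb and 69.9% and 56.1% over all peaks. Having a partner went with the score, from 17.3% of 336 peaks among the lowest-scoring 10% of the replicate 1 list to 98.6% of 423 peaks among the highest-scoring 10%. Peaks of the class without a partner had a median score of 5.97 in replicate 1 and 7.13 in replicate 2. They lay upstream nearly as often, with 70.5% in replicate 1 and 68.1% in replicate 2.

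**Figure D3:**
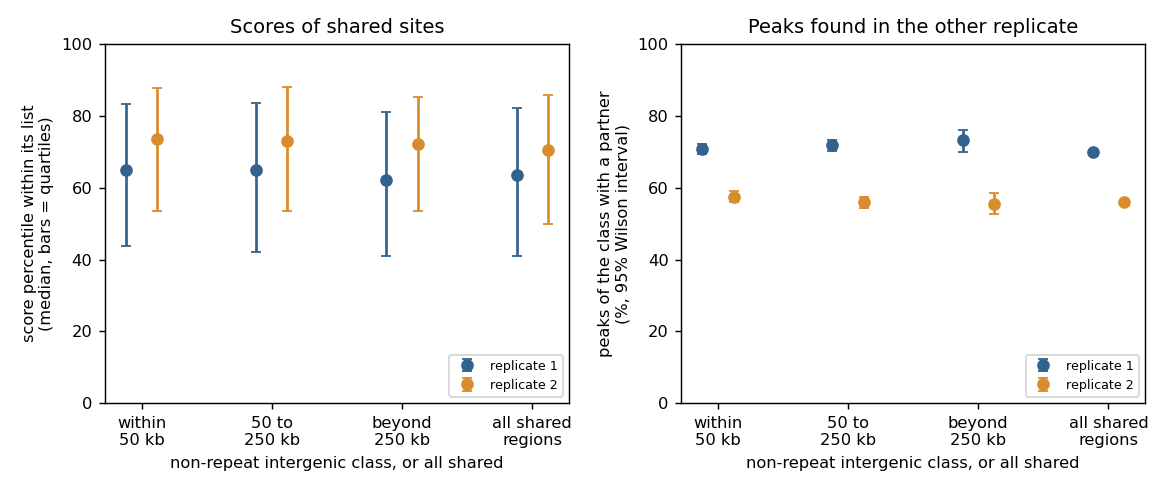
Left, median and quartiles of the score percentile of shared sites in each list for 3 classes of non-repeat intergenic sites and for all shared regions. Right, share of the peaks of each class with a partner in the other replicate and its 95% Wilson interval. The classes lie close together, and the replicates differ more than the classes do.

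Near intergenic sites were in CpG islands, which mark many promoters, more often than sites at 50 to 250 kb. The deposited annotation placed 52 of 2577 near sites in a CpG island (2.02%, 1.54% to 2.64%), against 9 of 2200 (0.409%, 0.215% to 0.776%). The 52 sites had median scores of 34.1 and 49.7, above the medians of all near sites in both lists, and 38 of them were upstream of the TSS.

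The label intergenic depended on the annotation. The RefSeq gene table of GRCh38.p14, which has the same chromosome coordinates as hg38, placed 636 of the 2577 sites inside the span of a gene (24.7%, 23.1% to 26.4%). A lncRNA spanned 409 of them (15.9% of all sites), and a protein-coding gene spanned 198 (7.68%). For 2432 sites on chromosomes with a RefSeq promoter window, which leaves out the 134 sites on chromosome 8, 481 (19.8%) had a RefSeq gene start over 1 kb closer than the deposited TSS, and 421 of these closer starts were of lncRNAs. A RefSeq gene start lay within 1 kb of 64 sites (2.63%). The median distance of these 2432 sites was 20301 bp to the deposited TSS and 20566 bp to the nearest RefSeq gene start.

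The sites named 2042 different nearest genes. A single site was found at 1640 of them, 307 had 2 sites and 95 had 3 or more. Protein-coding genes were nearest at 1668 sites (64.7%), non-coding RNA genes at 782 (30.3%) and pseudogenes at 110 (4.27%). The upstream share was 77.2% (75.1% to 79.1%) for protein-coding and 60.9% (57.4% to 64.2%) for non-coding genes. A near intergenic site had another shared region of any class within 10 kb in 32.1% of cases (30.3% to 33.9%), against 31.6% at 50 to 250 kb and 41.6% (40.9% to 42.2%) over all shared regions.

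The gene with the most sites, LOC105379514 on chromosome 21, had 7. It is a non-coding gene, and 2 of its sites were on the unplaced sequence KI270753v1. A pair of them looked alike in position, 22572 bp downstream on the unplaced sequence (scores 65.2 and 93.1) and 22584 bp downstream on chromosome 21 (50.8 and 123.8). Reads of near-identical copies can be split between them, so the count at this gene is uncertain. TSC22D2, which encodes a leucine zipper protein, had 6 sites, all upstream and between 17014 and 38086 bp from its TSS on chromosome 3. Only the site with summits at 150384994 and 150384990 was among the strong ones, with scores of 186.5 and 267.8, and the others scored from 5.12 to 36.3 in replicate 1 and from 4.90 to 58.3 in replicate 2.

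BMP10 had 5 sites, 2 of them downstream, and these included the site of lowest rank sum described above. The other downstream site, 42052 bp from the TSS, scored 109.6 and 171.1, while its 3 upstream sites scored at most 11.6 in replicate 1 and 14.8 in replicate 2. LOC100506022 on chromosome 1 had 5 upstream sites, the strongest 9144 bp from the TSS with summits at 9438140 and 9438138 and scores of 423.3 and 503.3. LINC01214 on chromosome 3 also had 5, all upstream, and the strongest lay 1712 bp from the TSS (150325459 and 150325468, scores 370.1 and 475.8). Altogether 7 genes had 5 sites each.

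LINC01214 and TSC22D2 are neighbours, and they lay in the 1 Mb window with the most near intergenic sites. In the megabase of chromosome 3 that starts at 150 Mb there were 18 of them, with median scores of 31.1 and 44.3. That window held 41 peaks in replicate 1 and 46 in replicate 2. A window with any near intergenic site held a median of 1, and 72 of 1293 such windows held 5 or more. Local copy number was not measured here, and its part in these counts was not tested.

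Genes of pigmentation had near intergenic sites in 13 of 40 cases (32.5%, 95% Wilson interval 20.1% to 48.0%). Of the 20033 protein-coding genes on chromosomes 1 to 22, X and Y, 1325 were the nearest gene of such a site (6.61%). Any shared region was assigned to 34 of the 40 pigmentation genes (85.0%), against 28.6% of all protein-coding genes. The list was chosen with earlier results of these data known, so its count is a description and no test was made. How much intergenic DNA lies around the genes of a list was not taken into account.

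At GPR143, a receptor of the melanosome membrane whose loss causes ocular albinism, the site lay 1621 bp upstream on chromosome X, with summits at 9767586 and 9767564. It scored 203.5 (rank 547) in replicate 1 and 281.4 (rank 659) in replicate 2, and it had the lowest rank sum, and so the strongest joint rank, of the 24 sites of the pigmentation list. QPCT, a glutaminyl cyclase, had 3 sites, all downstream. Its strongest lay 32284 bp from the TSS on chromosome 2 (summits 37376894 and 37376901, scores 122.5 and 191.7).

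GPNMB, a glycoprotein of melanosomes, had a site 16007 bp upstream on chromosome 7 with summits at 23230690 and 23230700. Its rank differed between the lists more than that of GPR143, with a score of 83.2 (rank 2599) in replicate 1 and 333.6 (rank 435) in replicate 2. The other genes of the list with a site were MLANA, LYST, SLC24A4, SLC24A5, TMEM163, TYR, BNC2, SLC7A5, MITF and DCT. Of the 24 sites of the list, 21 lay upstream, and every downstream site was at QPCT.

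The near intergenic sites of the melanin enzymes TYR and DCT and of the factor MITF scored below the median near site in both lists, except a TYR site that was above it in replicate 2. TYR, the rate-limiting enzyme of melanin synthesis, had sites 1883 bp upstream (scores 11.6 and 48.8) and 7817 bp upstream (6.43 and 10.6). DCT, which acts later in the same pathway, had a site 6851 bp upstream (6.43 and 12.2). MITF, which drives most pigment genes, had sites 26403 bp upstream (9.28 and 21.1) and 48014 bp upstream (8.28 and 7.77). Stronger shared regions of these genes lay in other classes. TYR had 7 shared regions in all, DCT 7 and MITF 23, of which 13 were in introns for MITF.

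The list of pheomelanin and cysteine genes had 3 of 14 genes with a site (21.4%, 7.57% to 47.6%), against 6.61% of all protein-coding genes. Pheomelanin, the red to yellow pigment, is built from cysteine. SLC1A4, a transporter of neutral amino acids, had the strongest, 2702 bp upstream on chromosome 2 (summits 64985743 and 64985723, scores 256.5 and 332.6), with a second site 13009 bp upstream. CTH, which makes cysteine from cystathionine, had a site 47142 bp downstream on chromosome 1 (70458360 and 70458318, scores 116.9 and 228.6). SLC7A11, the cystine importer whose mouse counterpart affects pheomelanin, had sites 1245 bp upstream (21.2 and 50.0) and 17708 bp upstream (12.4 and 33.2). A site that the deposited annotation gave to CBS, at 6428733 on chromosome 21, was left out because RefSeq places that gene at 43053191 to 43076873.

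**Figure D4:**
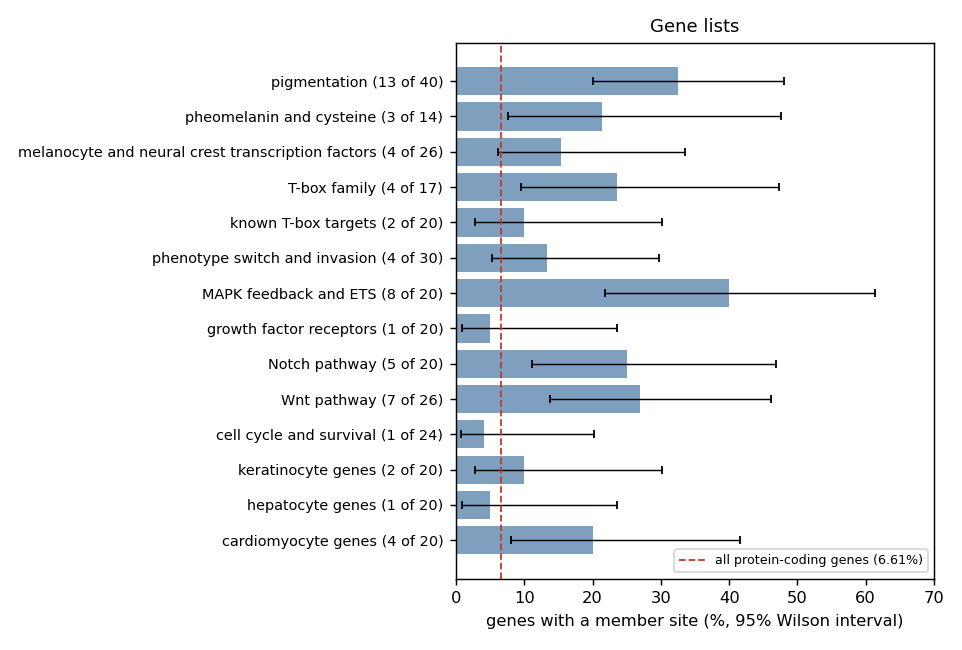
Share of the genes of each list that were nearest to at least 1 near intergenic site, with 95% Wilson intervals and the counts in parentheses. The dashed line marks the 6.61% of all protein-coding genes, and the bars of 2 lists, MAPK feedback and pigmentation, are the longest.

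The list of feedback regulators, ETS factors and other targets of the MAPK pathway, which most melanomas drive through BRAF or NRAS, had sites at 8 of 20 genes (40.0%, 21.9% to 61.3%, against 6.61% of all protein-coding genes). DUSP6, a phosphatase that inactivates ERK, had 3 sites on chromosome 12. The strongest lay 6429 bp downstream of its TSS (summits 89346430 and 89346424, scores 115.2 and 183.7). A site 48551 bp upstream of FOS, an AP-1 subunit induced by ERK, scored 92.2 and 165.4 (chromosome 14, 75230227 and 75230253). SPRY2, an inhibitor of receptor signalling, had a site 20921 bp upstream (chromosome 13, 80362036 and 80362085, scores 79.1 and 112.4). ETV1, DUSP4, SPRED1, PHLDA1 and SPRY1 completed the count.

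**Figure D5:**
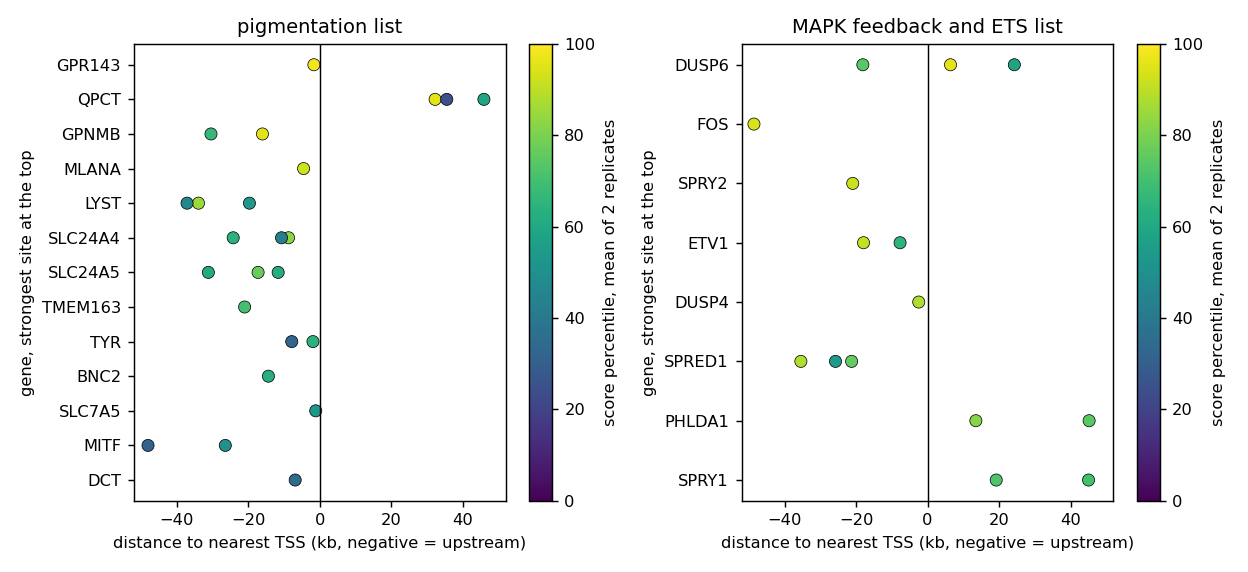
Signed distance of each near intergenic site to its nearest TSS for genes of the pigmentation list (left) and of the MAPK feedback and ETS list (right), coloured by the mean score percentile of the 2 replicates. Pigmentation sites lie upstream except at QPCT, while the MAPK list has sites on both sides, at DUSP6 within a single gene.

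Of 26 transcription factors of melanocytes and the neural crest, 4 had a site (15.4%, 6.15% to 33.5%, an interval that includes the 6.61% of all protein-coding genes). They were SNAI2, ETV1, TBX3 and MITF. The SNAI2 site was the strongest of them, 21431 bp downstream on chromosome 8 with summits at 48900009 and 48899979 and scores of 184.7 and 246.7. ETV1 had a site 17903 bp upstream on chromosome 7 (14009328 and 14009307, scores 61.5 and 135.4).

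TBX3 and MC1R were looked up because the series title names them. TBX3 had a single near intergenic site, 27657 bp upstream on chromosome 12 (summits 114711821 and 114711822), which scored 46.2 (rank 5226.5) and 90.4 (rank 3962.5). It was 1 of 12 shared regions assigned to the gene, of which 10 were intergenic and over 50 kb away. MC1R, the receptor for melanocyte-stimulating hormone, had no near intergenic site and 2 shared regions of other classes. In the T-box family 4 of 17 genes had a site (23.5%, 9.56% to 47.3%), against 6.61% of all protein-coding genes. The count was 1 at a limit of 25 kb, 4 at 100 kb and 6 with repeats included. The 4 genes were TBX4 (29882 bp downstream, scores 88.0 and 155.7), TBX3, TBXT (4785 bp upstream, 26.7 and 34.9) and MGA (38783 bp upstream, 23.3 and 27.0). The MGA site lay in a CpG island and inside the RefSeq promoter window of the lncRNA LOC105370791, so MGA is its gene only by the deposited annotation.

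Among phenotype switch and invasion genes, 4 of 30 had a site (13.3%, 5.31% to 29.7%, an interval that includes the 6.61% of all protein-coding genes). They were SNAI2, TWIST1, a factor of the mesenchymal state (22301 bp downstream, scores 76.5 and 135.4), TEAD1, the DNA-binding partner of YAP (37337 bp upstream, 56.7 and 104.1), and JUN. Known T-box targets had 2 of 20 genes with a site (10.0%, 2.79% to 30.1%), against 6.61% of all protein-coding genes, which lies inside the interval. They were HAS2, with a mid-range site at 23 and 27.4, and GLI3, with a weaker one at 7.82 and 12.2. Counting all peaks of the class in replicate 2 alone gave 7 of 30 phenotype switch genes and 4 of 20 T-box targets.

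Notch pathway genes had sites in 5 of 20 cases (25%, 11.2% to 46.9%), against 6.61% of all protein-coding genes. The site of HES1, a repressor induced by Notch, lay 1077 bp upstream on chromosome 3 (194135065 and 194135092) and scored higher in replicate 1 (79.3) than in replicate 2 (60.5). NRARP, a feedback inhibitor of Notch, had a site 2025 bp upstream (34.1 and 37.1). HEY1 had sites 5381 bp downstream (17.5 and 62.0) and 22005 bp downstream (7.12 and 26.0), and NOTCH2 and HEYL completed the count. Over shared regions of any class, the best rank at HEY1 was 1 in replicate 1 and 1.5 in replicate 2, outside the near intergenic class. Wnt pathway genes had sites in 7 of 26 cases (26.9%, 13.7% to 46.1%), against the same 6.61%. The leading ones were the receptor gene FZD7 (37712 bp upstream, 48.9 and 122.2), the Wnt inhibitor NKD1 (8963 bp upstream, 51.9 and 47.5) and the ligand gene WNT11 (25718 bp upstream, 23.6 and 58.6), with AXIN2, FZD1, WNT5B and SFRP1 besides.

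The remaining lists had between 1 and 4 genes with a site. Growth factor receptors had 1 of 20, FGFR1 (4183 bp upstream, scores 50.5 and 88.8), and 0 when the annotation rule had to be met in both lists. Cell cycle and survival genes had 1 of 24, BCL2A1, a BCL2 relative controlled by MITF in melanoma (7429 bp upstream, 62.8 and 65.4). Of 3 lists from other cell types, hepatocyte genes had 1 of 20 (HP, 14.9 and 38.6), keratinocyte genes 2 of 20 (PKP1, 73.6 and 149.3, and GRHL3) and cardiomyocyte genes 4 of 20 (20.0%, 8.07% to 41.6%). The cardiomyocyte genes were GATA4, TNNT2, NPPB and KCNJ2, and GATA4 had 2 sites, with scores of 117.6 and 178.5 at the stronger. Counting the peaks of 1 replicate alone gave 4 growth factor receptors in replicate 2 and 3 in replicate 1, and in replicate 2 also 2 cell cycle genes and 3 hepatocyte genes. The intervals of all these lists except that of the cardiomyocyte genes included 6.61%. Over the 14 lists together, 55 of 292 different genes had a site (18.8%), through 84 sites.

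Some genes with a near intergenic site had shared regions of other classes as well. Of the 1325 protein-coding genes with such a site, 66 also had a shared promoter region (4.98%, 3.93% to 6.29%) and 377 a shared intronic region (28.5%, 26.1% to 30.9%). Over all protein-coding genes these shares were 2.04% and 16.4%. For the 799 protein-coding genes nearest to a site at 50 to 250 kb they were 5.13% and 35.8%. On the pigmentation list, SLC24A4 was a gene whose 3 shared regions were all near intergenic sites, the strongest 8715 bp upstream with scores of 31.0 and 81.1.

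A few sites lay outside the numbered and sex chromosomes, with 10 on unplaced or unlocalised sequences and 1 in mitochondrial DNA.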

How the data were processed

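The members and the gene lists were chosen with earlier results of these data known. Per the file headers, each list held the peak summits of 1 ChIP sample, annotated by the authors with annotatePeaks.pl of HOMER against hg38. The submitters' processing notes name FastQC 0.11.7, cutadapt 2.8, Bowtie2 2.3.5, MACS2 2.1.2 and SAMtools 1.9, without their settings. The peak score of each summit was deposited by the authors without a stated scale. Distances to the TSS (negative upstream), nearest genes, repeats and CpG islands were used as deposited. Read depth is unknown. Input samples were not analysed here.

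Summits were paired when mutually nearest within 200 bp. The pairing was run on simulated summits whose planted partners lay inside this limit and whose neighbours were far apart. High recovery was fixed by that setting, so the run checked only that the pairing worked as written. Ranks and percentiles were taken within a list, with ties averaged. Shares have 95% Wilson intervals (scipy 1.17.1). Genes were matched by gene ID to RefSeq of GRCh38.p14, which gave 2033 of 2042. A listed gene's site counted only within 100 kb of its RefSeq span. Sequences are from RefSeq.

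Named in full were the 10 sites of lowest rank sum, the 5 genes with the most sites, up to 3 genes per list, the 5 sites closest to a TSS and those beside the 50 kb limit. TBX3 and MC1R were looked up from the title. The sites of TYR, DCT, MITF, MGA and SLC24A4 and the best ranks of HEY1 were chosen after values were seen. So were the 1 Mb windows and the sites with printed sequence.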

Additional observations from a re-analysis of the deposited data

How the results depend on the processing

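No paired analysis was possible because only the ChIP samples have values here and no test between groups was run. Of 226 values under other settings, 180 stayed within their interval, their spread or 1.5 times the count. The cause of the other 46 was not tested, except where a setting changes which sites are counted. The number of sites was 1708 with scores at or above the list median, 4102 with repeats included, 1668 with a protein-coding nearest gene, 1538 at a limit of 25 kb, and from 3642 to 4480 without either replicate. The upstream share moved to 77.2% with protein-coding genes, and lay between 70.3% and 71.0% without either replicate. The median distance was 19885 bp with repeats included and from 20608 to 20772 bp without either replicate. The rank correlation was 0.848 with scores at or above the list median. The share of peaks with a partner was 64.8% and 52.5% in replicates 1 and 2 within 100 bp, 74.8% and 60.9% within 500 bp, and 86.8% and 70.1% with scores at or above the list median. The median percentile of near sites minus that at 50 to 250 kb was 0 in replicate 1 and 0.75 in replicate 2. In replicate 1 it was -1.09 with scores at or above the list median, 1.21 with the annotation rule met in both lists, 0.68 with repeats included, -0.99 with protein-coding genes and 1.08 without replicate 2. In replicate 2 it was 0.13 with scores at or above the list median, 0 with protein-coding genes and 1.70 without replicate 1. The pigmentation list had from 9 to 16 genes with a site over all settings. Of 168 counts for the 14 lists, 22 moved by over 1.5 times. At a limit of 25 kb the T-box family and the cardiomyocyte genes went from 4 genes to 1 and the melanocyte transcription factors from 4 to 2, and at 100 kb the last had 8. The Wnt list went from 7 to 4 at 25 kb and with scores at or above the list median. Counting CBS by its deposited name was chosen after seeing the data and moved no list by over 1.5 times. The element search around all summits was not run, since no genome was used here. Unknown depth limits every count of peaks.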
